A study of Homo sapiens with 2 samples.

Results

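The glycolytic enzyme genes HK2, GPI, PFKP, ALDOA, TPI1, GAPDH, PGK1, ENO1, PKM and LDHA were examined for ING5 occupancy at their transcription start sites (TSSs). These 10 genes are a fixed list, given by name, out of 19819 protein-coding genes placed in GRCh38. A promoter peak is an ING5 peak whose summit lies within 1000 bp of any annotated TSS of the gene. Untreated HepG2 cells, which derive from a human liver tumour, gave 1 library by ING5 ChIP-seq. Their input DNA, also untreated, gave 1 more, which served as the control of the peak calls. The ChIP library held 12416160 fragments and the input library 9915170, and the peak list held 8608 peaks, with at least 7 fragments at the summit. With 1 library of each kind there is no replicate error and no test between conditions. Poisson intervals cover the counting error of fragments only. Binomial intervals treat the genes of a list as independent draws, though the lists are fixed, and serve as no test. A gene without a peak is a gene where none was called at this depth. None of 10 hepatocyte marker genes, ALB, APOA1 and HNF4A among them, had a promoter peak, and neither did any of 6 markers of blood, fibroblast and endothelial cells. Of all protein-coding genes, 30.9% had one. A peak list holds no RNA, so these counts do not check the labelled line.

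Glycolysis splits glucose into pyruvate in the cytosol, first spending ATP to make sugar phosphates and then regaining it from 3-carbon intermediates, and lactate dehydrogenase turns pyruvate into lactate. Most steps are carried out by isoenzymes from separate genes, and hepatocytes and tumour cells are known for using different ones. ING5 carries a plant homeodomain finger that recognises methylated histone H3 near gene starts, and works inside histone acetyltransferase complexes of the MYST family.

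An ING5 promoter peak was found at 8 of the 10 genes (80%, exact binomial 95% interval 44.4 to 97.5), against 30.9% of all protein-coding genes. HK2, PFKP, ALDOA, TPI1, GAPDH, ENO1, PKM and LDHA had 14 promoter peaks between them, and GPI and PGK1 had none. The tallest stood at PKM and ENO1, near the end of the pathway, with 35 and 29 fragments at the summit, and the lowest best peak at TPI1 had 12. Over the 8 genes with a peak the median fold enrichment of the best peak was 10.5, against 7.01 over all 6126 genes with a promoter peak.

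Promoter sequence from RefSeq (GRCh38.p14) matched all 10 genes. It is shown for the 5 whose 250 upstream bases hold at most 30 bases of annotated untranslated region. Of these, LDHA, GAPDH and PFKP have upstream sequence in or near a peak. HK2 and PGK1 hold similar motifs and differ in whether a peak was called. Each run is the 250 bases upstream of the RefSeq start, 5′ to 3′ on the plus strand, on which all 5 genes lie. Capitals mark the GC box, whose letters are GGGCGG, and the CCAAT box, on either strand. They also mark the core of hypoxia response elements, which was searched as ACGTG and, in a separate search, as GCGTG. The E-box CACGTG contains ACGTG on both strands.
LDHA, chr11:18394313-18394562: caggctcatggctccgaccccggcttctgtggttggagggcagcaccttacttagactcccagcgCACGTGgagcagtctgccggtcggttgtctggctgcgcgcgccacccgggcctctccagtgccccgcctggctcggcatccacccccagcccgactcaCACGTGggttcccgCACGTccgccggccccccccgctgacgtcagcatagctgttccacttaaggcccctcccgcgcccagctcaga
GAPDH, chr12:6535014-6535263: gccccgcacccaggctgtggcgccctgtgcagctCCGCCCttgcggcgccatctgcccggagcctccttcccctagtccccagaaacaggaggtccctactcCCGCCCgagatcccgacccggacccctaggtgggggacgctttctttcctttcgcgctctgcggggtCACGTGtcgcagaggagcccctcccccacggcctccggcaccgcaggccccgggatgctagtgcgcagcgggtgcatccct
PFKP, chr10:3067720-3067969: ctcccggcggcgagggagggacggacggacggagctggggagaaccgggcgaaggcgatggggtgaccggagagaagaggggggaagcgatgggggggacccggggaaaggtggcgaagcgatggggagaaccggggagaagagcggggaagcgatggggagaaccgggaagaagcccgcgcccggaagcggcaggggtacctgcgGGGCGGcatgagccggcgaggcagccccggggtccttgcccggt
HK2, chr2:74833877-74834126: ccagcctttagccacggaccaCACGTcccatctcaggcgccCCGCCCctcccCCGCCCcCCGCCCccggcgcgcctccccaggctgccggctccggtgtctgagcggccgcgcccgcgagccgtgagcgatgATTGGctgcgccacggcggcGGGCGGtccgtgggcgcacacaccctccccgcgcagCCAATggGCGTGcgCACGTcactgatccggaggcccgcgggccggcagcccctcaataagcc
PGK1, chrX:78103998-78104247: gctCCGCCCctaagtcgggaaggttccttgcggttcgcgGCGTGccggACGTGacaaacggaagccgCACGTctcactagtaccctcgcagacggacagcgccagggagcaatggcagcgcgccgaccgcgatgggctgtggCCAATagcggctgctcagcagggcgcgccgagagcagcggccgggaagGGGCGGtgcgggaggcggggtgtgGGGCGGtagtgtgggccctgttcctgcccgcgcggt

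The sequence shown for GAPDH lay wholly inside its strongest peak, since the RefSeq start is 747 bp downstream of the canonical TSS. For PFKP, whose RefSeq start is 422 bp downstream of the canonical TSS, 115 of the 250 bases lay in a peak. The LDHA peak began 30 bp downstream of the canonical TSS, and none of the bases shown lay in it. No peak was called over the HK2 or PGK1 bases.

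The motifs did not part the genes with a peak from the pair without. Counted over windows of 300 bases, from 250 upstream to 50 downstream of the RefSeq start, a GC box was present at 7 of 10 members and in 58.5% of 15812 promoters of the same length. Both HK2 and PGK1 held GC boxes, 4 and 3, together with matches to both hypoxia response cores and the CCAAT box. ACGTG was found at 6 members and in 23.7% of all promoters, and GPI and PGK1 were among the 6. GCGTG was found at 5 members and in 44.1% of promoters, and CCAAT at 3 members (HK2, PGK1 and PKM) and in 36.3%. An E-box was found at 2 members, GAPDH and LDHA, and in 8.87% of promoters. The ETS core CCGGAAG was found at GPI and PFKP and in 14.2% of promoters. Neither the letters TATAAA (9.64% of promoters) nor the NRF1 palindrome (8.59%) were in any member window. All were searched on both strands, and a match is a match of letters only.

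CpG content did not part them either. PGK1, without a peak, had the highest CpG observed over expected of the 10 windows, 1.03, above 90.9% of the 15812 promoters. GPI, the other gene without a peak, had 0.54, and ALDOA, with 2 peaks, had the lowest, 0.43. The remaining members ran from 0.76 at GAPDH to 0.98 at PKM, and the median over all promoters was 0.76. The ALDOA and GPI windows were read 1481 and 204 bp upstream of the canonical TSS, where RefSeq places the start.

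Of the investment steps, HK2, PFKP, ALDOA and TPI1 had promoter peaks with 12 to 20 fragments at the best summit, and GPI had none. At HK2, whose hexokinase traps glucose in the cell as its phosphate, the peak covered 801 bp on chromosome 2 from 74834496 to 74835296. It had 16 fragments at the summit (95% Poisson interval 9.15 to 26.0) and 7.55-fold enrichment over background. The summit lay in intron 1, 971 bp downstream of the canonical TSS but only 72 bp from an alternative start. HK2 has only 3 annotated starts.

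PFKP encodes the platelet form of phosphofructokinase, the main control point of the pathway. It had a pair of peaks of equal height on chromosome 10, each with 13 fragments (6.92 to 22.2) and 7.55-fold enrichment. Their summits lay 417 and 1311 bp downstream of the canonical TSS, and the second was 118 bp from an alternative start. They were 240 and 598 bp long.

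ALDOA, the aldolase that cuts the 6-carbon sugar into 3-carbon pieces, had the tallest peaks of the investment steps. The stronger covered 1443 bp on chromosome 16 from 30065827 to 30067269, with 20 fragments (12.2 to 30.9) and 11.3-fold enrichment. Its summit lay 372 bp downstream of the canonical TSS and 55 bp from an alternative start. The other peak, with 17 fragments and 9.71-fold, had its summit 606 bp upstream of the canonical TSS, and 329 bp from the start of an antisense long noncoding RNA gene.

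TPI1 encodes the isomerase that makes both 3-carbon products usable. Its pair of peaks on chromosome 12 had 12 fragments each (6.20 to 21.0) and 7.01-fold enrichment, the value of the median gene with a promoter peak. The summits lay 526 and 1133 bp downstream of the canonical TSS, and the first was 43 bp from an alternative start.

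Of the payoff steps, GAPDH, ENO1 and PKM had promoter peaks with 17 to 35 fragments at the best summit, and PGK1 had none. GAPDH, whose enzyme makes NADH and is a common reference in expression assays, had 3 promoter peaks on chromosome 12, the most of any member. The best covered 1002 bp from 6534745 to 6535746, with 17 fragments (9.90 to 27.2), 9.71-fold enrichment and its summit 470 bp downstream of the canonical TSS in intron 2. A second, also in intron 2, had 15 fragments but 4.57-fold enrichment, because its local background was 2.50 fragments, the highest of the 14 peaks. The third had 9 fragments and 5.40-fold, and lay 916 bp upstream of the canonical TSS and 103 bp from the start of GAPDH-DT, a divergent long noncoding RNA gene. That peak was also the nearest to the 1000 bp limit on its inner side, at 911 bp from a GAPDH start. The nearest outside it were a peak of ENO1 at 1456 bp and another of GAPDH at 1548 bp, each with 9 fragments.

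ENO1 encodes enolase 1, which forms phosphoenolpyruvate. Its promoter peak covered 1544 bp on chromosome 1 from 8876883 to 8878426, with 29 fragments (19.4 to 41.6) and 16.2-fold enrichment. It ranked 96th of the 6126 genes by −log10 p, which is 34.8. The summit lay in intron 1, 1307 bp downstream of the canonical TSS and 628 bp from the nearest alternative start, and the peak began 260 bp downstream of the canonical TSS. A pair of lower peaks followed further into the same intron, with 9 and 11 fragments and summits 2135 and 3596 bp downstream.

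PKM encodes the pyruvate kinase of most tissues and tumours. Its stronger peak was the tallest and longest of all members and covered 1769 bp on chromosome 15 from 72229437 to 72231205. It had 35 fragments (24.4 to 48.7), 15.98-fold enrichment and a −log10 p of 38.6, which ranked it 67th. It reached from 15 bp upstream to 1753 bp downstream of the canonical TSS, and its summit lay at 1084 bp, 384 bp from an alternative start. A second peak in the same intron, 2263 bp downstream of the canonical TSS and 251 bp from an alternative start, had 9 fragments and 4.92-fold enrichment.

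LDHA encodes the lactate dehydrogenase subunit typical of glycolytic tissue. Its only peak covered 1374 bp on chromosome 11 from 18394593 to 18395966, with 21 fragments (13.0 to 32.1) and 11.9-fold enrichment. The summit lay closest to a canonical TSS among the best peaks, 209 bp downstream, and 68 bp from an alternative start.

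**Figure D1:**
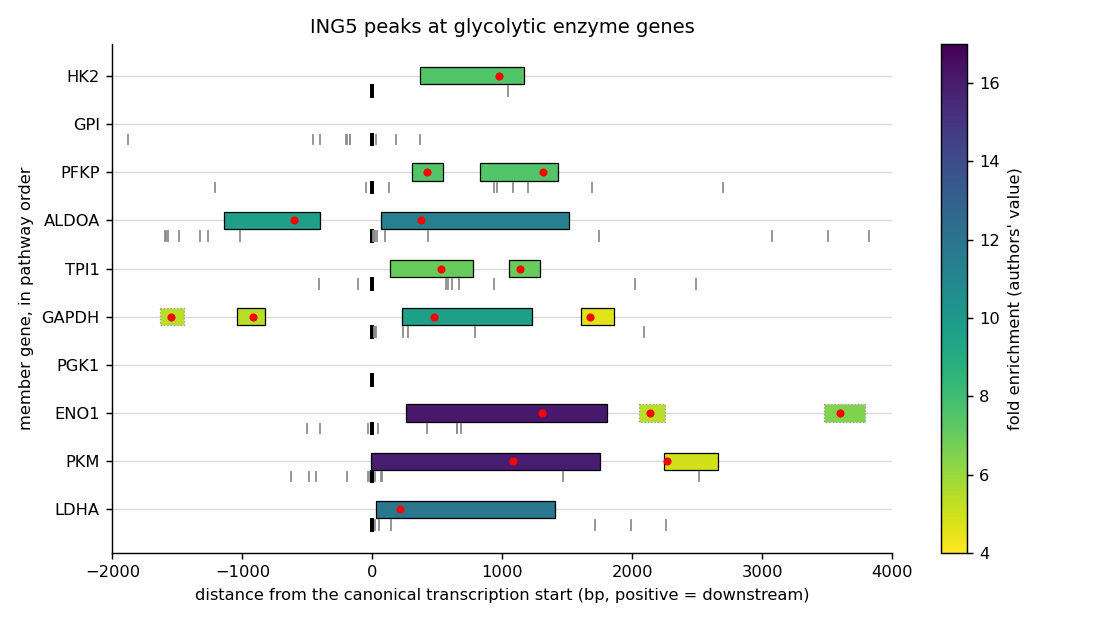
ING5 peaks at the 10 genes in pathway order, by distance in bp from the canonical TSS (positive is downstream). Boxes are peaks coloured by the authors' fold enrichment, red dots are summits, dotted outlines mark peaks over 1000 bp from any TSS, the thick tick is the canonical TSS and thin ticks are alternative ones. The ENO1 and PKM boxes are the darkest, with summits at 1307 and 1084 bp, and the rows of GPI and PGK1 are empty.

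GPI, whose isomerase turns glucose phosphate into fructose phosphate, had no peak within its gene on chromosome 19, from 34359480 to 34402413. The nearest summit lay 7608 bp from its closest TSS, past the end of the gene, with 9 fragments and 5.40-fold enrichment. GPI has 18 annotated starts, against 3 for HK2. PGK1, whose kinase makes the first ATP of the payoff phase, had no peak within its gene on the X chromosome either. The nearest summit lay 14563 bp from a TSS, with 8 fragments and 4.86-fold enrichment. Promoter peaks were found at 12.1% of the genes of the X chromosome and 21.1% of those of chromosome 19, the lowest shares among the chromosomes that carry members. The part of the chromosome in the missing peaks was not tested.

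By height the order of the best peaks was PKM, ENO1, LDHA, ALDOA, GAPDH, HK2, PFKP and TPI1. By fold enrichment ENO1 came before PKM and PFKP before HK2, since HK2 and PKM each had 1.25 fragments as local background and the other best peaks the genome-wide 0.853. A raised local background was thus found at 2 of 8 members, against 38.4% of all genes with a promoter peak. Neighbours in the order had overlapping Poisson intervals, as did all but 2 of 28 pairs. The pairs apart were PKM with PFKP and PKM with TPI1. Overlap of intervals is no test that 2 counts are equal.

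**Figure D2:**
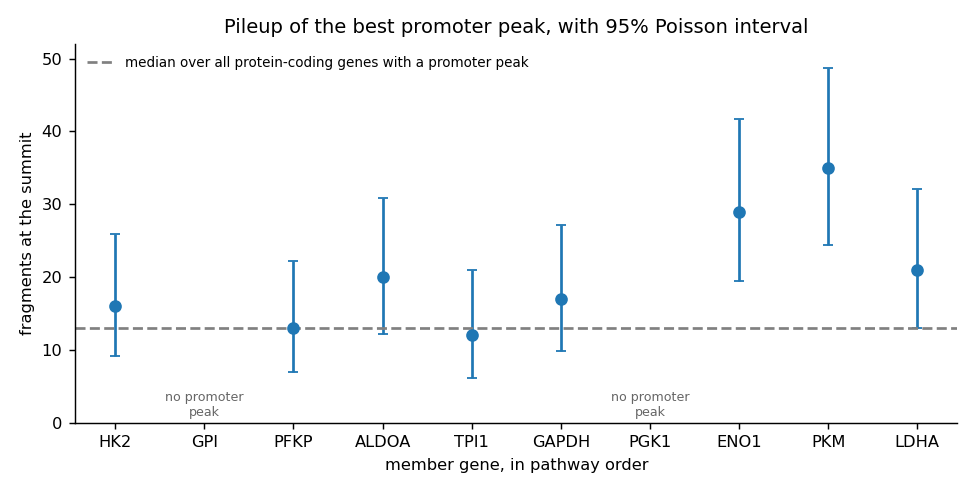
Fragments at the summit of the best promoter peak of each gene in pathway order, with exact 95% Poisson intervals. The dashed line is the median over all genes with a promoter peak, 13 fragments. The intervals of ALDOA, GAPDH, HK2, PFKP, TPI1 and LDHA overlap each other, and PKM at 35 is highest.

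Long peaks were frequent among the members. The best peaks of ALDOA, GAPDH, ENO1, PKM and LDHA were at least 1000 bp long, 5 of 8, against 6.68% of all genes with a promoter peak. This length was chosen after the values were seen. The median length was 1188 bp over the 8 genes and 389 bp over all 6126. The PKM peak was longer than 99.2% of all promoter peaks, that of ENO1 than 98.5% and that of ALDOA than 98.1%. The short end was PFKP with 598 bp and TPI1 with 637 bp, still longer than 77.0% and 79.6% of promoter peaks. Each of these was tied with a shorter peak of equal height, fold enrichment and −log10 p, and was taken because its summit was nearer a TSS. The tied peaks were 240 bp long at PFKP and 238 bp at TPI1, longer than only 21.9% and 21.4% of promoter peaks. Long peaks were also the most enriched members, and no best peak under 1000 bp exceeded 7.55-fold.

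**Figure D3:**
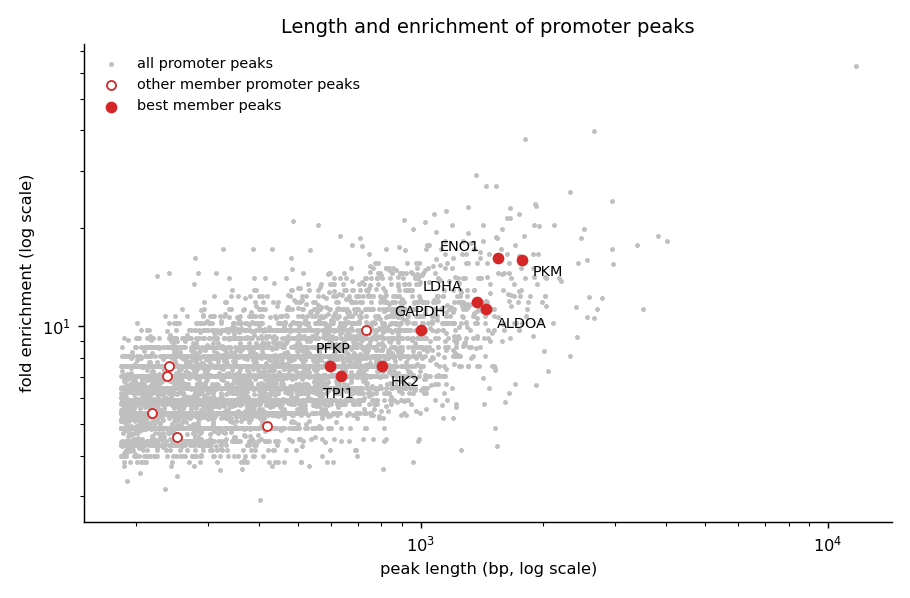
Peak length in bp against fold enrichment, both on log scales, for all 6527 promoter peaks (grey), the best peak of each member (filled red) and the other member promoter peaks (open red). PKM, ENO1, LDHA, ALDOA and GAPDH lie to the right at 1002 to 1769 bp, and PFKP, TPI1 and HK2 at 598 to 801 bp.

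Several peaks at 1 gene were common too. PFKP, ALDOA, TPI1, GAPDH and PKM had 2 or more promoter peaks, 5 of 8, against 23% of all genes with a promoter peak. These 5 genes have 10 to 22 annotated starts, and any start could place a peak. With canonical transcripts alone 8 peaks at 6 members remained, and only ALDOA and GAPDH kept 2. The share of all genes with several peaks was not counted under that rule. None of the 14 member peaks lay within 1000 bp of a TSS of another protein-coding gene, while 18.7% of all promoter peaks were shared by at least 2 such genes. Only the upstream peaks of ALDOA and GAPDH had another annotated start within that distance, each of a long noncoding RNA gene on the opposite strand.

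The summits lay downstream of the canonical TSS. This held for the best peak of 8 of 8 members, against 79.1% of all genes with a promoter peak, and for 12 of the 14 member peaks. All 12 lay in introns of the canonical transcript, 10 in intron 1 and the 2 of GAPDH in intron 2. The best summit was nearer to an alternative than to the canonical start at 8 of 8 members, but also at 77.9% of all genes with a peak. It was over 1000 bp from the canonical TSS at 3 of 8 (PFKP, ENO1 and PKM), against 13.4%. PFKP is in that count only because the second of its equal peaks was taken as the best. TPI1 is out of it only because the first of its equal peaks was taken, since the second had its summit at 1133 bp.

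Distance from a start decided which genes kept a peak under a narrower window or choice of starts. With canonical transcripts alone, ENO1 and PKM, the members with the strongest peaks, dropped out and 6 of 10 remained, against 27.9% of all genes. The same 6 genes had a summit within 200 bp of an annotated TSS, against 13.5% of all genes, and within 1000 bp of the RefSeq start, against 28.9%. All 8 had a peak with a window of 3000 bp (32.9% of all genes), with any overlap of peak and window (31.4%), when the less significant 50% of peaks were left out (19.3%) and among peaks with fold enrichment at or above the median (20%). Peaks over the genome-wide background alone left 6, without HK2 and PKM, against 19.9%. Among the 1000 most significant peaks ALDOA, ENO1, PKM and LDHA remained, 4 of 10, against 4.79% of all genes.

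Of 20 further glycolysis genes, 4 had a promoter peak (20%, exact binomial 95% interval 5.73 to 43.7), beside 80% of the 10 members and the 30.9% of all protein-coding genes. Members and isoenzymes together had a peak at 12 of 30 genes (40%). Among hexokinases HK2 had a peak, and HK1, HK3 and HKDC1 had none. Of the phosphofructokinase genes PFKP and the muscle form PFKM had peaks and the liver form PFKL did not. ALDOA had peaks and ALDOC did not. PKM had peaks and PKLR, the liver and red cell pyruvate kinase gene, had none, its nearest summit being 7686 bp away. LDHA had a peak and LDHB and the testis form LDHC did not, and LDHC starts close by on chromosome 11, 17546 bp from the nearest summit. No peak was called at GAPDHS, PGK2, PGAM2, ENO2, ENO4 or BPGM.

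PGAM1, which carries out the mutase step that the 10 genes leave out, had a peak of 1029 bp with 17 fragments and 6.25-fold enrichment over a local background of 1.88. Its summit lay 709 bp downstream of the canonical TSS, within 1000 bp of a start of RRP12. The best ENO3 peak, with 21 fragments and 11.9-fold, lay 2771 bp upstream of the canonical TSS and 96 bp from an alternative start, and was shared with PFN1. That of PFKM, with 14 fragments and 7.22-fold, lay 13892 bp upstream of the canonical TSS and 10 bp from an alternative start, and was shared with SENP1. The best peak of ADPGK, which encodes a kinase that phosphorylates glucose with ADP, was shared with no other protein-coding gene and had 20 fragments and 11.3-fold enrichment 248 bp downstream of its canonical TSS. RRP12, PFN1 and SENP1 are named here after their values were seen.

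**Figure D4:**
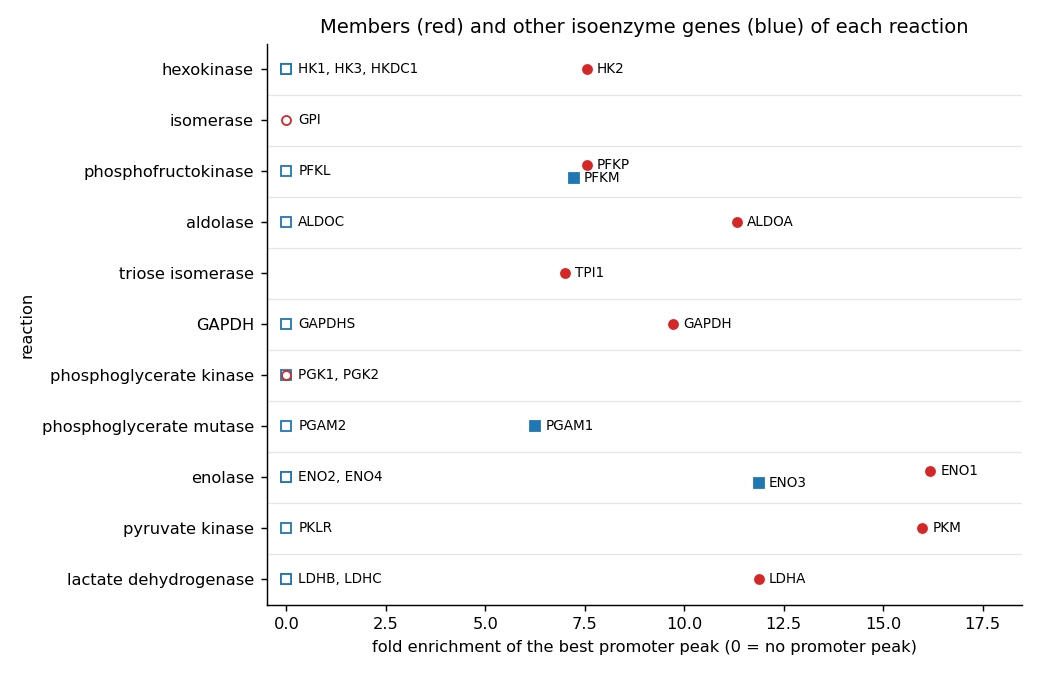
Fold enrichment of the best promoter peak for the 10 members (red circles) and the other isoenzymes of each reaction (blue squares), with open symbols at 0 for genes without a promoter peak; not every isoenzyme is drawn. Of the isoenzymes drawn in blue, PFKM, PGAM1 and ENO3 have a peak, at 7.22, 6.25 and 11.9-fold.

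Around the pathway, transporters of glucose and lactate had a peak at 4 of 10 genes, led by the lactate exporter gene SLC16A3 with 12.4-fold enrichment and 4 promoter peaks, ahead of SLC16A7 with 7.55-fold, SLC16A1 with 6.34-fold and the glucose transporter gene SLC2A1 with 5.33-fold. Regulators had 4 of 13: HIF1A, the oxygen-regulated activator of many glycolytic genes, with 11.8-fold, PDK4 with 8.62-fold, PFKFB3 with 7.10-fold and TXNIP with 5.94-fold. The PFKFB3 summit lay 57661 bp upstream of the canonical TSS and 337 bp from an alternative start. Genes of gluconeogenesis had 3 of 9 (PC, PCK2 and SLC37A4, from 6.47 to 9.17-fold), and those of the pentose phosphate pathway 3 of 9 (TALDO1, PGD and PGLS, from 6.99 to 10.8-fold). Among these, the best PCK2 peak was shared with another protein-coding gene. The transporters stood at 40%, the regulators at 30.8% and the gluconeogenesis and pentose phosphate genes at 33.3% each. The share of all protein-coding genes was 30.9%, inside the binomial interval of each of these lists. Genes of pyruvate dehydrogenase and the TCA cycle had 19 of 25 (76.0%, 54.9 to 90.6), beside 80% of the members. Their best peaks were lower and shorter than those of the members, with a median of 6.47-fold and 384 bp against 10.5-fold and 1188 bp. No difference between lists was tested.

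**Figure D5:**
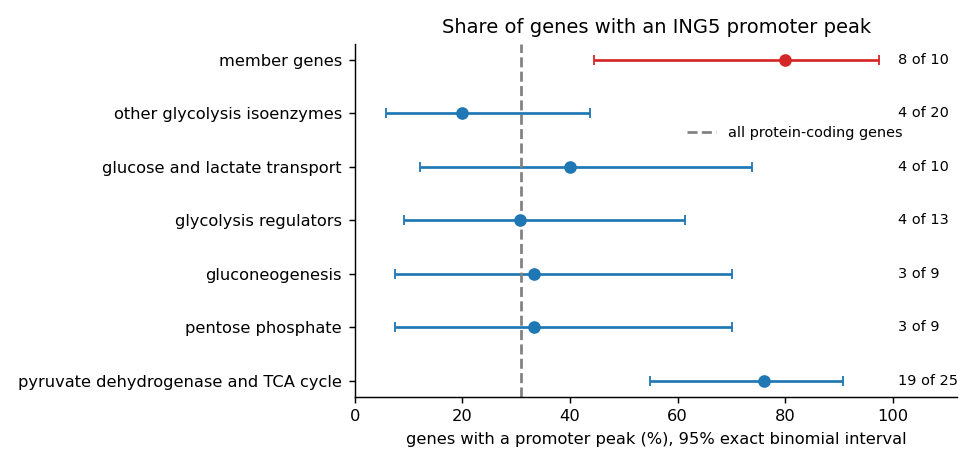
Percent of genes with an ING5 promoter peak in the members (red) and 6 other lists (blue), with exact 95% binomial intervals; the dashed line is all protein-coding genes, 30.9%. The shares run from 20% of the other isoenzymes to 80% of the members. The intervals treat genes as independent draws and are no test of the lists, which were chosen with earlier results known.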

How the data were processed

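Chromatin of untreated HepG2 cells was profiled with an ING5 antibody in 1 library, with 1 input library as control. Per the file headers, the authors ran MACS2 2.1.1.20160309 on paired-end fragments with p set to 1e-05 or less; the library's name there is in no label. Per the submitters' processing notes, fastp 0.19.6, Bowtie2 and deepTools were used. Pileup, as deposited, is the coverage at the summit in fragments, a signal. The deposited significance is −log10 p, used for ranking; a −log10 q column is present although the headers say q was not calculated. The deposited fold is the ratio of pileup to the background around it, with 1 added to each, as the values show. The deposited length is in bp and falls under no other unit. Each value is the authors' own for that peak.

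GRCh37 is the build in the labels, yet sequence names of GRCh38 occur in the list, and positions were read as GRCh38. TSSs came from the original GRCh38 exon positions in GENCODE 44; MLXIP had none and was left out. Only the 8589 peaks on chromosomes 1 to 22 and X were placed. The best peak of a gene had the highest −log10 p, ties going to the summit nearest a TSS. Promoter sequence came from RefSeq. It covered 74.2% of genes without a peak, so sequence was not compared between all genes with and without one. The local background was recovered from pileup and fold; within 0.001 of the lowest counted as genome-wide.

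Members, lists and settings were chosen with earlier results of these data known. Named genes were the members, the isoenzymes, up to 5 genes with a peak from each other list by −log10 p, and the markers; others are said to be chosen later. A few list genes enter counts but are not reported here by name. The placing of peaks was tested on simulated data. Python 3.11.15, pandas 2.3.3 and scipy 1.17.1 were used.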

Additional observations from a re-analysis of the deposited data

How the results depend on the processing

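7 of the 9 settings other than the reported one were planned; peaks over the genome-wide background alone and the RefSeq start alone were added after seeing the data. The members with a promoter peak numbered 6 or 8 in all settings but the 1000 most significant peaks, where 4 had one. The settings select among deposited peaks and leave their values as they are, so a gene that kept its best peak kept its fold enrichment by construction. Of the 12 member summits downstream of the canonical TSS, 7 were counted with a window of 200 bp, 6 with canonical transcripts alone, 4 among the 1000 most significant peaks and 7 with the RefSeq start alone, since fewer peaks enter each by construction. The 4 other glycolysis genes with a peak became 2 among the 1000 most significant peaks and 2 over the genome-wide background alone. The 33 genes with a peak in the 5 lists around the pathway became 12 with a window of 200 bp, 20 in the more significant of 2 equal parts, 6 among the 1000 most significant peaks, 21 with fold enrichment at or above the median and 16 over the genome-wide background alone. The share of all protein-coding genes fell under these settings too, from 30.9% to 13.5%, 19.3%, 4.79%, 20% and 19.9%, in that order. No paired analysis was possible because each group has 1 library and no result comes from a test. The low pileups limit what can be told apart. Most Poisson intervals of members overlap, though overlap is no test of equal counts.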

Other observations

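Several genes in the pyruvate dehydrogenase and TCA cycle list had highly significant promoter peaks. SDHA, a subunit gene of succinate dehydrogenase, had 40 fragments at the summit, more than PKM with 35, but over a local background of 3.13 fragments, which made 9.93-fold. FH, the fumarase gene, had 28 fragments and 12.2-fold enrichment over 1.38 fragments, with its summit 574 bp downstream of the canonical TSS. OGDH, a subunit gene of oxoglutarate dehydrogenase, had 17 fragments and 9.71-fold, the same as GAPDH. MPC2, a subunit gene of the mitochondrial pyruvate carrier, had 17 fragments and 7.99-fold with its summit 241 bp upstream. The best peaks of SDHA and MPC2 were shared with other protein-coding genes, and those of FH and OGDH were not.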
